A study of Mus musculus with 15 samples.

Results

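The genes described here encode glutamate receptors and the scaffold proteins that hold them at the postsynaptic membrane of excitatory synapses. They were taken by symbol, 39 genes of the 24420 in a table of mouse cerebellar RNA-seq counts. Of the 24 receptor genes 4 encode AMPA receptors (Gria1 to Gria4), 1 a delta receptor (Grid1), 5 kainate receptors (Grik1 to Grik5), 7 NMDA receptors (the Grin genes) and 7 metabotropic receptors (Grm2 to Grm8). The 15 scaffold genes are 3 Shank, 4 Dlg, 4 Dlgap, 2 Homer and 2 Grip genes. A low-count filter kept 38 of the 39 for testing, out of 16808 tested genes. The gene left out was Grm6, the metabotropic receptor of retinal ON bipolar cells, with 0 to 5 counts per library.

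The study profiled total RNA of cerebellum from 3 groups of mice, with 5 libraries each. WT mice were FVB/nJ animals of 9 weeks. The 82Q mice, also FVB/nJ and 9 weeks old, carried Atxn1[82Q], an ataxin-1 allele with an expanded polyglutamine tract, the kind of mutation that causes spinocerebellar ataxia type 1. The 82Q_M120A mice had the genotype Atxn1[82Q],CalphaLoxM120A, which adds an altered allele of the catalytic subunit Calpha of protein kinase A (PKA), and were 8 weeks old on a mixed c57Bl/6J and FVB/nJ background. The series is about phosphorylation of ataxin-1 by PKA in Purkinje cells. Both mutant groups carry Atxn1[82Q], and the kinase allele was not examined on its own. Kinase allele, strain background and age therefore cannot be told apart in any comparison with 82Q_M120A. The design text calls Atxn1[82Q] a knockin, while the labels name neither the promoter that drives it nor a Cre line. Nothing says that the 5 libraries of a group came from 5 separate animals. Each group held libraries with high and with low Xist, a transcript of female tissue, so no group came from a single animal. The p-values refer to the spread among these libraries, part of which may be technical. Libraries are numbered by their place in the table (WT-1 to WT-5 and so on).

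Glutamate released by granule cell axons (parallel fibres) and by climbing fibres acts on the Purkinje cell, the only output neuron of the cerebellar cortex. AMPA receptors carry the fast current there, delta and metabotropic receptors organise the parallel fibre synapse and its long-term depression, and NMDA receptors are most prominent in granule cells. At the membrane, Dlg proteins (the PSD-95 family) bind receptor tails, Dlgap proteins link Dlg to Shank, Shank joins them to Homer and the actin cytoskeleton, and Grip proteins bind the tails of AMPA receptors. Shank1, Shank2 and the kainate receptor genes Grik1 and Grik4 are known from Purkinje cells, as is Gria3, while Gria1 is also known from Bergmann glia, and Grin2c and Grm4 are granule cell genes.

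In 82Q, 14 of the 38 tested genes were lower than in WT and 2 were higher, and the falls ranged from a small change in Grin1 to a drop of about 2.2-fold in Grik1. Grik1, Shank2, Dlg2 and Grik4 fell most. In 82Q_M120A, 17 genes were lower than in WT and 5 higher. Of all 16808 tested genes 10.1% were lower and 8.63% higher in 82Q, and 17.8% and 18.6% in 82Q_M120A. Between 82Q_M120A and 82Q 8 of the 38 genes differed, 4 in each direction, a share near the 18.9% called over all tested genes. Of these 8, Homer2 and Grik4 were called in all 20 alternative settings of the analysis. These include leaving out each library in turn and a stricter threshold of 0.01, at which alone Gria3 and Shank3 lost their calls. Levels are CPM, counts per mega counts of a library, with library sizes scaled by TMM (a trimmed mean of log ratios between libraries). A gene is called higher or lower at a Benjamini-Hochberg adjusted p under 0.05 in edgeR's quasi-likelihood test over all 16808 tested genes, and all adjusted p-values below come from that test. Fold changes are log2 values with approximate standard errors.

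Library totals ran from 38.3 to 99.4 M counts (M, mega), and WT-5 was the shallowest. Prkaca, the gene of the PKA subunit Calpha, fell from 168 ± 3.6 CPM in WT to 145 ± 5.54 CPM in 82Q_M120A (SD, n = 5, adjusted p = 5.09e-05), with no overlap between the groups, and stood at 164 ± 5.76 CPM in 82Q. Atxn1 was not called in any comparison and lay between 46.4 and 62.2 CPM, and the sources used here do not say whether reads of the 82Q allele would be counted in that row. Of 8 Purkinje cell markers all 8 were lower than in WT in both mutant groups, and their summed level ranged from 9259 to 10570 CPM in WT, 4062 to 4935 in 82Q and 3959 to 4938 in 82Q_M120A. Granule cell markers summed to 4844 to 5515, 4933 to 5478 and 5317 to 5940 CPM, and 1 of the 8 granule cell markers was called in 82Q against WT, as higher. Bergmann glia and astrocyte markers summed to 4805 to 5249, 3908 to 4020 and 3960 to 4391 CPM. In both mutant groups 4 of these 8 (Aldoc, Hopx, Slc1a3 and Timp4) were lower than in WT and 2 (Aqp4 and Gfap) higher. Aldoc, the most abundant of these 8 in WT, alone ranged from 2079 to 2365 CPM in WT, 1080 to 1233 in 82Q and 1166 to 1337 in 82Q_M120A. The fall in the sum thus lay largely in this gene, and the sum does not stand for the 8 markers together. Oligodendrocyte markers summed to 4875 to 5892, 5994 to 7261 and 6744 to 7364 CPM, and microglia markers to 120 to 134, 193 to 205 and 183 to 222 CPM. In whole cerebellum fewer cells of a type and less RNA per cell cannot be told apart, which holds for every difference below. Xist, which marks female tissue, was high in 4 WT, 2 82Q and 3 82Q_M120A libraries, and the choroid plexus gene Ttr stood at 1510, 2218, 2412, 18.3 and 2100 CPM in WT, 24.2, 2602, 269, 66.2 and 1936 CPM in 82Q and 1920, 8.3, 9.31, 20.7 and 15.8 CPM in 82Q_M120A. Ttr was thus high in 4 WT libraries and, of 82Q_M120A, in 82Q_M120A-1 only. Their part in the receptor results was examined only as covariates in the fit.

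PKA phosphorylates CREB, a transcription factor that binds the cAMP response element, whose core is TGACG. Promoter windows (250 bases before to 50 after a transcript's start, RefSeq on GRCm38.p6) were matched by symbol for 27 of the 39 genes, with 43 windows in all. The core, searched on both strands (TGACG or CGTCA, which overlap in a full palindromic site), stood in 8 of the 43 windows, or 18.6%, against 20.8% of all 32851 windows of the same length. The 8 genes were Dlg3, Dlg4, Dlgap4, Grik2, Grin1, Grip1, Grm8 and Homer1. The octamers TGAATGAA and TGAATGGA, bound by CIC, the repressor that partners ataxin-1, stood in 2 windows, those of Dlg1 and Dlgap1, or 4.65% against 2.47% of all windows. Of the genes with a window, 4 of the 9 called lower in 82Q held a CRE core, as did 4 of the 18 others. Grik1, Shank2, Shank1, Gria3 and Gria1, also called lower in 82Q, had no window. These counts are per gene, some genes have several windows, and no share per gene over all genes was computed. Shown are the windows of Grin1, Dlg4, Dlgap4 and Homer1. Grin1, a receptor subunit gene, and the scaffold genes Dlg4 and Dlgap4 hold a core and were lower than WT in both mutant groups. The same holds for Dlg3, whose window is not shown. Homer1, the gene with the most cores, was lower in 82Q_M120A than in 82Q, a call lost without 82Q-3 or 82Q_M120A-2. Its other window holds 0 cores. None of the other genes with a core was called between 82Q_M120A and 82Q. The part of the cores in these calls was not tested. Capitals mark each TGACG or CGTCA. They lie at chr2:25319138-25319437 (minus strand), chr11:70023732-70024031, chr2:156720715-156721014 and chr13:93303507-93303806 (plus strand), in that order.
Grin1: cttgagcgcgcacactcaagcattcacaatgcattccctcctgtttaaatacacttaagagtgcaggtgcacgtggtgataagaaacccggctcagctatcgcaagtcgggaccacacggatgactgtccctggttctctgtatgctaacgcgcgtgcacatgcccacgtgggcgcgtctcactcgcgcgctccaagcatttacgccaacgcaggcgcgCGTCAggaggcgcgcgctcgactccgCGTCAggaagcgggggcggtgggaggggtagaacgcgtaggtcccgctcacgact
Dlg4: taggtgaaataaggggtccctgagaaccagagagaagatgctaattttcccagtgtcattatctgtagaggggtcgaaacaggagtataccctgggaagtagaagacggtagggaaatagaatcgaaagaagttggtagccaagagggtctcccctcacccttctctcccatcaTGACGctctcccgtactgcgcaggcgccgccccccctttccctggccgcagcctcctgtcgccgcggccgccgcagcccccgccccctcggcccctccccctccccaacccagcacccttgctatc
Dlgap4: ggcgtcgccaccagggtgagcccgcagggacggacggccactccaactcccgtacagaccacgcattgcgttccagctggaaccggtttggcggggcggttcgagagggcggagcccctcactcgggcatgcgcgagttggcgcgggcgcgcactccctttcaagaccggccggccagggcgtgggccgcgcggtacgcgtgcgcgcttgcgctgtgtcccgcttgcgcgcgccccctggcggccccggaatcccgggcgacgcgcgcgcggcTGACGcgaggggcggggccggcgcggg
Homer1: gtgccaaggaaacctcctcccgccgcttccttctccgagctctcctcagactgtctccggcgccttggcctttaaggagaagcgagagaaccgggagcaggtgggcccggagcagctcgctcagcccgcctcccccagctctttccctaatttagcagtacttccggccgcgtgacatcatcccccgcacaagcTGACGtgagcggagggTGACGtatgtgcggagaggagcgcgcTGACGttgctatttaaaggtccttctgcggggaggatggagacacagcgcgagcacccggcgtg
The Homer1 window holds 3 cores, beginning at bases 195, 211 and 237 of the window, Grin1 holds 2, at bases 220 and 246, and Dlg4 and Dlgap4 hold 1 each, at bases 175 and 274. A match of letters is no evidence of binding, and no binding data were analysed here.

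The first comparison, 82Q against WT, concerns the expanded ataxin-1, on a shared strain and at a shared age. Of all 16808 tested genes 18.7% were called, 8.63% higher and 10.1% lower, and in 16.6% the 5 libraries of one group did not overlap the 5 of the other. Among the 38 receptor and scaffold genes 14 were lower, 2 higher and 22 not called, and 14 did not overlap. The share called lower was larger than over all tested genes and the share called higher smaller. Their median log2 fold change was -0.10, against 0.01 over all tested genes. Receptor genes had 6 lower and 1 higher of 23, and scaffold genes 8 lower and 1 higher of 15. With scaling by library size only, the share of all called genes that were higher moved from 46.2% to 73%, and the receptor and scaffold genes had 6 higher in place of 2.

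The second comparison, 82Q_M120A against WT, differs in genotype at both genes, in strain and in age. Here 36.4% of all tested genes were called, 18.6% higher and 17.8% lower, and 25.3% did not overlap. Of the 38 genes 17 were lower, 5 higher and 16 not called, 14 did not overlap, and the median log2 fold change was -0.11 against 0.01. Receptor genes had 9 lower and 4 higher of 23, and scaffold genes 8 lower and 1 higher of 15. Both comparisons use the same WT libraries, so each gene's values are given side by side. By library size only, the share of all called genes that were higher moved from 51.1% to 68.8%, and 8 of the 38 genes were higher in place of 5.

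**Figure D1:**
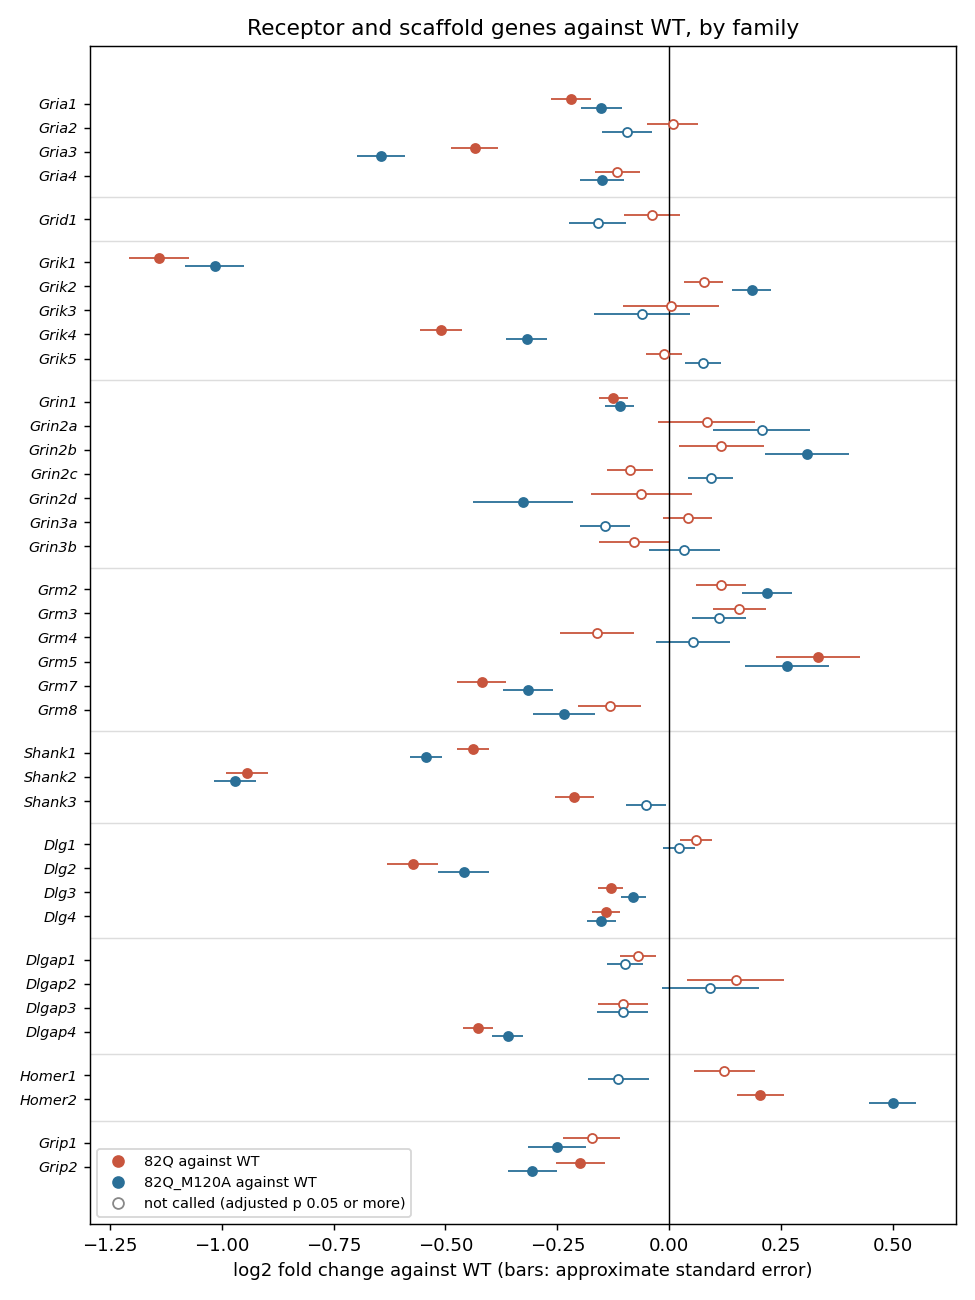
Log2 fold change against WT of the 38 tested receptor and scaffold genes (one row each, grouped by family, horizontal axis on the log2 scale) in 82Q and in 82Q_M120A, 5 libraries per group; bars are approximate standard errors, and open symbols are genes not called. Grik1 and Shank2 lie farthest to the left in both comparisons (-1.14 and -0.94 in 82Q), and Homer2 lies farthest to the right in 82Q_M120A (0.50).

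Of the AMPA receptor genes, Gria3, which encodes the GluA3 subunit and lies on the X chromosome (chrX:41400854-41678601, mm10), stood at 192, 182, 202, 190 and 201 CPM in WT-1 to WT-5, at 139, 142, 155, 139 and 140 CPM in the 82Q libraries and at 139, 133, 113, 117 and 116 CPM in the 82Q_M120A libraries. Every library of a group lay apart from those of both other groups, in the order WT, 82Q, 82Q_M120A from high to low, although 82Q_M120A-1 at 138.7 CPM lay just under the lowest 82Q library. The log2 fold change was -0.43 ± 0.053 in 82Q (adjusted p = 9.26e-06) and -0.64 ± 0.053 in 82Q_M120A (adjusted p = 3.94e-08). With the Xist class of the library as a covariate these were -0.45 and -0.65, with adjusted p-values of 1.75e-05 and 7.51e-08. Gria1, the GluA1 subunit gene, was also lower, with 714, 674, 721, 689 and 757 CPM in WT, 591, 620, 639, 618 and 585 CPM in 82Q and 651, 637, 616, 701 and 595 CPM in 82Q_M120A. All 5 of its 82Q libraries lay below the lowest WT library, while 82Q_M120A-4 reached into the WT range. Its log2 fold change was -0.22 ± 0.045 in 82Q (adjusted p = 0.002) and -0.15 ± 0.045 in 82Q_M120A (adjusted p = 0.0141, and 0.0771 by library size only). The Gria1 call in 82Q_M120A was also lost with log2 Ttr as covariate. Gria2, whose edited transcript makes AMPA receptors impermeable to calcium, had 545 ± 25.2, 548 ± 54.7 and 510 ± 19.6 CPM (SD, n = 5) in WT, 82Q and 82Q_M120A and was not called. Gria4, a subunit gene of granule cells and Bergmann glia, was called lower in 82Q_M120A (-0.15 ± 0.05, adjusted p = 0.0258) and not in 82Q (-0.12 ± 0.05, adjusted p = 0.123). That call was lost in 7 of 20 alternative settings, among them those without WT-1, WT-4, 82Q_M120A-3 or 82Q_M120A-5, and adjusted p reached at most 0.121. Of the 8 Bergmann glia and astrocyte markers 4 were lower and 2 higher in each mutant group, and their part in the Gria1 and Gria4 results was not tested.

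Per length, on a scale of TMM-scaled CPM per kilobase of union exon, Gria1 and Gria4 were the most abundant AMPA genes in WT, with levels of 118 ± 5.25 and 114 ± 3.42 (SD, n = 5), followed by Gria2 at 35 ± 1.62 and Gria3 at 19.6 ± 0.857. Gria1 and Gria4 did not differ beyond their spread. As a share of the summed per-length level of the 4 genes, Gria3 held 6.84% ± 0.186 in WT, 5.67% ± 0.108 in 82Q and 4.94% ± 0.376 in 82Q_M120A. The ranges of the 3 groups did not overlap. Gria2 held 12.2% ± 0.531, 13.7% ± 0.742 and 12.9% ± 0.331, Gria1 41.1% ± 1.19, 39.5% ± 1.26 and 41.7% ± 1.02, and Gria4 39.8% ± 0.823, 41.1% ± 0.769 and 40.4% ± 0.9. The shares depend on the lengths used. With the longest transcript of each gene Gria3 held 10.6%, 8.8% and 7.73%, in the same order of groups. Shares are a description and were not tested.

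The delta receptor gene Grid1 encodes GluD1, a postsynaptic receptor that binds cerebellins. It stood at 32.4 ± 1.88, 31.5 ± 1.09 and 28.9 ± 3.4 CPM (SD, n = 5) and was not called in either comparison with WT (adjusted p = 0.736 and 0.0571). 82Q_M120A-1, at 34.9 CPM, lay above the other 4 libraries of its group (26.2 to 28.2 CPM), and without it the log2 fold change against WT was -0.24 with an adjusted p of 0.000571.

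Among the kainate receptor genes Grik1, the GluK1 subunit gene (chr16:87895900-88290265, mm10), fell most of all the members. WT libraries had 32.5, 30.7, 35, 31.1 and 32 CPM, 82Q libraries 15.2, 14.3, 15.9, 14 and 13.8 CPM and 82Q_M120A libraries 15.5, 15.7, 13.7, 16.3 and 18.6 CPM. Every mutant library lay far below the lowest WT library, and the mutant groups overlapped each other. On the log2 scale the change was -1.14 ± 0.066 in 82Q (adjusted p = 4.97e-10) and -1.02 ± 0.066 in 82Q_M120A (adjusted p = 1.73e-09), or 2.2-fold and 2.02-fold lower. Grik4, the gene of the high-affinity subunit GluK4, had 16.7, 16, 16.4, 16.1 and 18.2 CPM in WT, 11.7, 12.4, 10.8, 12.2 and 11.4 CPM in 82Q and 13.5, 13.3, 13.3, 13.1 and 13.6 CPM in 82Q_M120A. The 3 groups did not overlap, and 82Q_M120A lay between the others. The log2 fold change against WT was -0.51 ± 0.046 in 82Q (adjusted p = 2.03e-07) and -0.32 ± 0.046 in 82Q_M120A (adjusted p = 3.33e-05). Grik2, the GluK2 gene, was not called in 82Q (0.08, adjusted p = 0.254) and was higher in 82Q_M120A (0.18 ± 0.044, adjusted p = 0.00319), from 105 ± 5.32 to 120 ± 4.17 CPM. Grik3 and Grik5 were not called in any comparison, and their WT levels were 137 ± 19.6 and 98.4 ± 3.46 CPM. Without 82Q_M120A-1 Grik5 passed the threshold in 82Q_M120A, with log2 fold changes of 0.11 against WT (adjusted p = 0.0293) and 0.12 against 82Q (adjusted p = 0.0313).

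Within the kainate family the per-length share of Grik1 was 9.64% ± 0.528 in WT, 4.68% ± 0.434 in 82Q and 4.91% ± 0.59 in 82Q_M120A. That of Grik4 was 5.62% ± 0.275, 4.21% ± 0.236 and 4.63% ± 0.105. Grik5, which encodes GluK5 and needs a partner such as GluK1 or GluK2 to form a channel, held the largest share in each group, at 38.2% ± 1.78, 40.5% ± 1.84 and 41.5% ± 1.96.

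**Figure D2:**
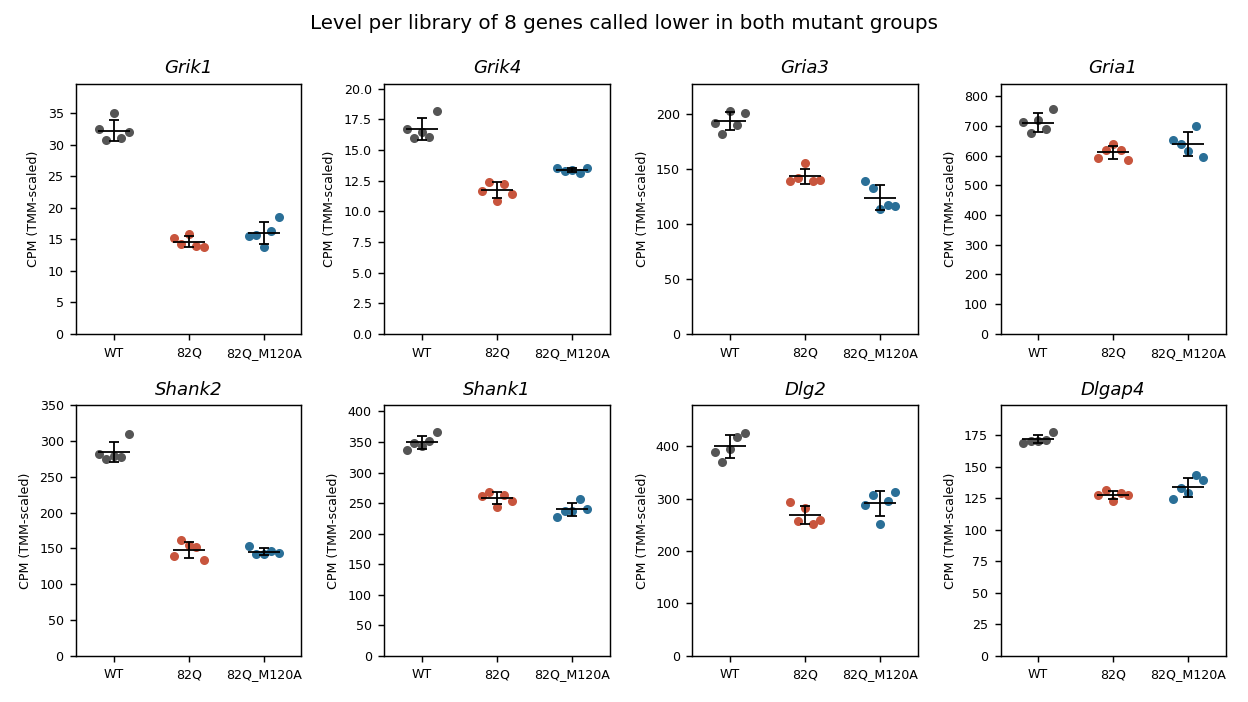
TMM-scaled CPM (vertical axis, from 0) of 8 genes called lower in both mutant groups, one point per library, 5 libraries per group, with the mean and SD as bars. In Grik1 and Shank2 the mutant libraries sit near the middle of the axis, far below every WT library, while in Gria1 1 library, 82Q_M120A-4, reaches into the WT range.

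Of the NMDA receptor genes, Grin1, which encodes the GluN1 subunit that every NMDA receptor needs, had 260, 270, 272, 281 and 264 CPM in WT, 254, 254, 232, 251 and 245 CPM in 82Q and 235, 256, 254, 251 and 252 CPM in 82Q_M120A. All mutant libraries lay below the lowest WT library, by a narrow margin. In log2 terms it changed by -0.12 ± 0.033 in 82Q (adjusted p = 0.0122) and -0.11 ± 0.033 in 82Q_M120A (adjusted p = 0.0136), and both calls were lost by library size only, with adjusted p of 0.0877 and 0.122. Of its exon bases 13.5% are shared with the antisense gene Grin1os, and the sources used here do not give the strand setting of the count. Grin1os itself stood at 13.3 to 17.2 CPM.

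The GluN2 genes set the kinetics of the receptor, and Grin2c, the form of mature granule cells, held 95.4% ± 0.472 of their summed per-length level in WT, 95.2% ± 0.318 in 82Q and 96.1% ± 0.558 in 82Q_M120A. In 82Q against WT the 4 GluN2 genes were not called, with adjusted p between 0.26 and 0.762. In 82Q_M120A against WT, Grin2b, a subunit of developing neurons, was higher (3.58 ± 0.284 to 4.42 ± 0.624 CPM, 0.31 ± 0.095, adjusted p = 0.0165, and 0.0511 without WT-1), and Grin2d, known from interneurons and cerebellar nuclei, was lower (23.7 ± 2.77 to 18.9 ± 3.36 CPM, -0.33 ± 0.11, adjusted p = 0.0334). The Grin2d call was lost in 9 of 20 settings, with an adjusted p of up to 0.243. Grin2a, the other GluN2 gene of mature neurons, stood at 20.8 ± 2.89, 22.1 ± 3.37 and 24.1 ± 2.33 CPM and was not called. Grin3a and Grin3b, whose subunits bind glycine and lower calcium entry, were not called against WT in either group. Grin3b shares 32.1% of its exon bases with Tmem259 on the opposite strand, so reads of the overlap cannot be assigned to either gene from the table.

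Of the metabotropic receptor genes, Grm7, a presynaptic receptor of low glutamate affinity, was lower in both mutant groups, from 23.2, 20.9, 24.2, 21.5 and 22.9 CPM in WT to 16.2, 17.7, 17.9, 16.4 and 16.1 CPM in 82Q and 18.4, 18.9, 16.4, 17.1 and 19.6 CPM in 82Q_M120A. Both mutant groups lay wholly below WT and overlapped each other. Against WT the log2 fold change was -0.42 ± 0.055 in 82Q (adjusted p = 2.11e-05) and -0.32 ± 0.055 in 82Q_M120A (adjusted p = 0.000222). Grm5, the group I receptor that is abundant in the young cerebellum and in Golgi cells of the adult, was higher in 82Q, with 9.71 ± 1.2 against 12.2 ± 0.969 CPM (SD, n = 5). Its log2 fold change was 0.33 ± 0.094 (adjusted p = 0.0195), the groups overlapped, and without WT-1, WT-4 or 82Q-1 the call was lost, with adjusted p of up to 0.0545. In 82Q_M120A Grm5 was called too (0.26 ± 0.094, adjusted p = 0.0367), and 9 of 20 settings lost that call. Grm2, a Golgi cell receptor, was higher in 82Q_M120A (23.4 ± 1.48 to 27.3 ± 2.26 CPM, adjusted p = 0.00505), and Grm8, a presynaptic receptor, was lower (13.3 ± 1.17 to 11.3 ± 0.806 CPM, adjusted p = 0.0136). With log2 Ttr as a covariate Grm8 had an adjusted p of 0.146 and Grm2 one at the threshold. Grm4, the presynaptic receptor of parallel fibres, was by far the most abundant of the family per length (106 ± 8.63 CPM per kilobase in WT) and was not called, at 632 ± 51.6, 565 ± 52.8 and 656 ± 74.3 CPM. Grm3, a glial and neuronal group II receptor, was not called either. Markers of molecular layer interneurons and Golgi cells summed to 620 to 731 CPM in WT, 636 to 688.1 in 82Q and 511.2 to 669.6 in 82Q_M120A. Of the 7 of these 8 markers that were tested, 2 (Nxph1 and Slc6a5) were higher in 82Q against WT, and the same 2 were higher and 3 (Prkcd, Kit and Tfap2b) lower in 82Q_M120A against WT. Their part in the Grm2, Grm5 and Grin2d results was not tested.

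All 3 Shank genes were lower in 82Q. Shank2 (chr7:144001928-144424494, mm10) had 282, 276, 280, 278 and 310 CPM in WT, 140, 162, 154, 152 and 133 CPM in 82Q and 154, 142, 142, 146 and 143 CPM in 82Q_M120A. The 10 mutant libraries all lay far below WT, and the mutant groups overlapped. The log2 fold change was -0.94 ± 0.047 in 82Q (adjusted p = 9.1e-11) and -0.97 ± 0.047 in 82Q_M120A (adjusted p = 5.39e-11), or 1.92-fold and 1.96-fold lower. Shank1 (chr7:44310253-44360572, mm10) went from 337, 348, 344, 352 and 366 CPM in WT to 262, 268, 243, 264 and 254 CPM in 82Q and 227, 237, 237, 256 and 240 CPM in 82Q_M120A, again with no mutant library near WT. Its log2 fold change was -0.44 ± 0.036 in 82Q (adjusted p = 4.47e-08) and -0.54 ± 0.036 in 82Q_M120A (adjusted p = 1.94e-09). Shank3, the gene whose loss causes Phelan-McDermid syndrome and a form of autism, had 339, 339, 327, 318 and 326 CPM in WT and 277, 277, 266, 298 and 304 CPM in 82Q, where every library lay below WT. Its 82Q_M120A libraries, at 301, 350, 308, 309 and 321 CPM, spread across both ranges. On the log2 scale the change was -0.21 ± 0.044 in 82Q (adjusted p = 0.00219) and -0.05 ± 0.044 in 82Q_M120A (adjusted p = 0.384, not called).

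Per length the 3 Shank genes were close in WT, with shares of 34.8% ± 0.717 for Shank1, 27.7% ± 0.825 for Shank2 and 37.5% ± 1.24 for Shank3 (SD, n = 5). In 82Q the shares were 35.4% ± 0.857, 19.9% ± 1.56 and 44.7% ± 1.87, and in 82Q_M120A 32.1% ± 1.28, 19.1% ± 1.08 and 48.8% ± 1.78. Shank3 held the largest share in every library, WT included, and the Shank2 share of each mutant library lay below that of each WT library.

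**Figure D3:**
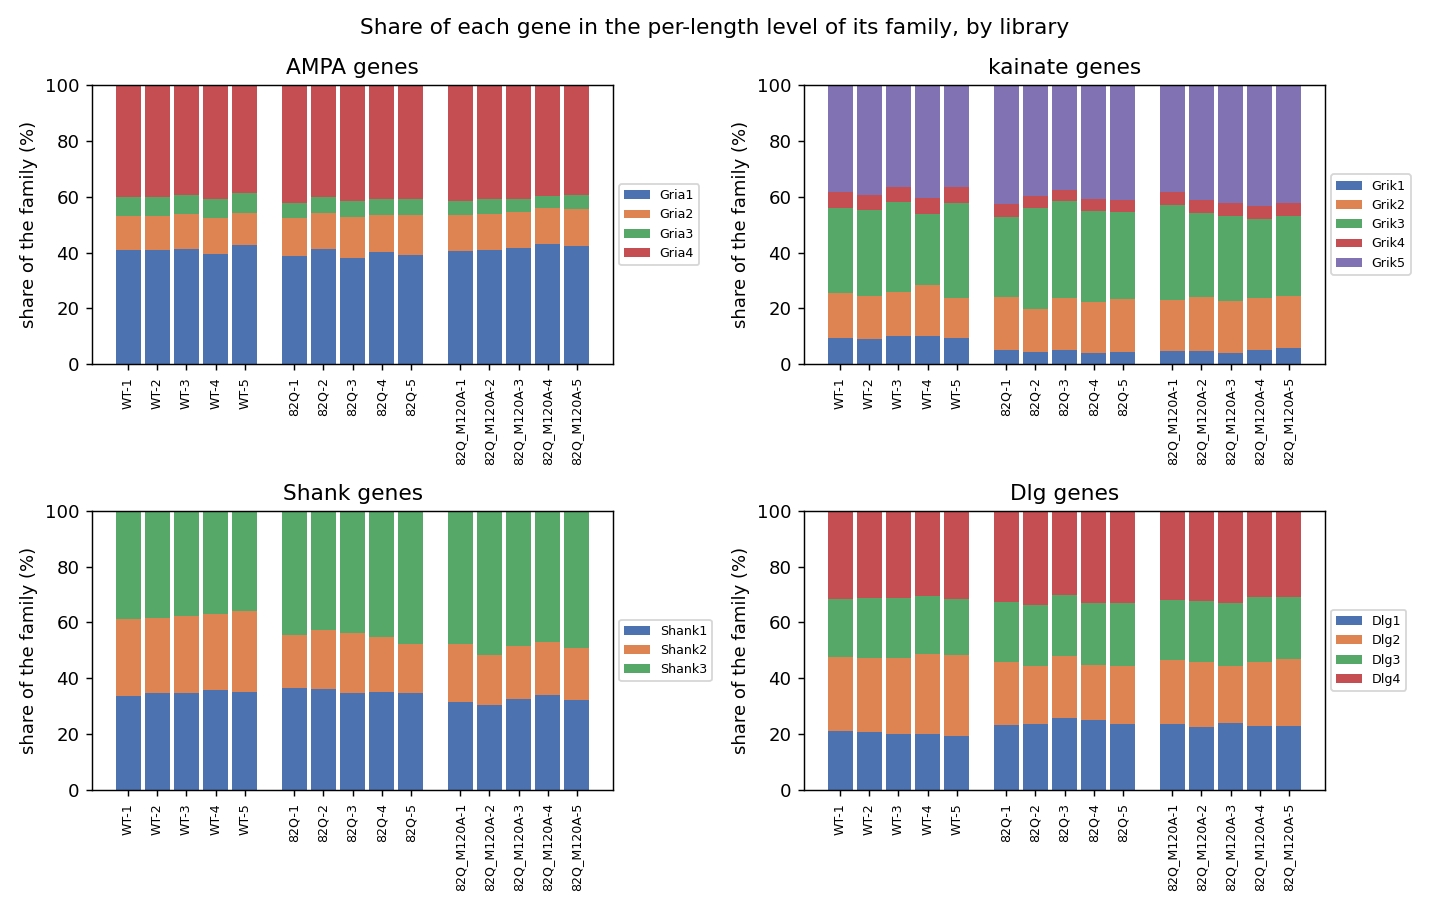
Share (percent, vertical axis) of each gene in the summed per-length level (CPM per kilobase of union exon) of its family in each of the 15 libraries, for the AMPA, kainate, Shank and Dlg genes. The Grik1, Shank2 and Dlg2 bands are narrower in the mutant libraries (Shank2 from 27.7% in WT to 19.9% in 82Q), and the Shank3 band is wider.

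In the Dlg family Dlg2, which encodes PSD-93, the member of the family known from Purkinje cells, had 390, 370, 396, 418 and 426 CPM in WT, 294, 257, 282, 252 and 259 CPM in 82Q and 289, 307, 252, 296 and 312 CPM in 82Q_M120A. Both mutant groups lay below every WT library. In log2 terms it changed by -0.57 ± 0.058 in 82Q (adjusted p = 7.55e-07) and -0.46 ± 0.058 in 82Q_M120A (adjusted p = 6.81e-06). Dlg4, the PSD-95 gene, fell by far less, from 375, 357, 373, 366 and 375 CPM in WT to 343, 343, 316, 342 and 330 CPM in 82Q and 327, 347, 333, 325 and 330 CPM in 82Q_M120A. No mutant library reached the WT range, and the log2 fold changes were -0.14 ± 0.032 (adjusted p = 0.00412) and -0.15 ± 0.032 (adjusted p = 0.00118). Dlg3, the X-linked SAP102 gene, was lower by 1.1-fold in 82Q (-0.13 ± 0.029, adjusted p = 0.00329, and -0.14 with the Xist class as covariate) and by 1.06-fold in 82Q_M120A, where 6 of 20 settings lost the call. Dlg1, the SAP97 gene, was not called and stood at 194 ± 6.52, 202 ± 12.2 and 197 ± 1.52 CPM (SD, n = 5). The per-length share of Dlg2 in the family was 27.6% ± 1.21 in WT, 21.3% ± 1.14 in 82Q and 22.6% ± 1.36 in 82Q_M120A.

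Of the 4 Dlgap genes, whose proteins bridge Dlg and Shank, only Dlgap4 was called. It had 169, 170, 171, 171 and 178 CPM in WT, 127, 131, 123, 129 and 128 CPM in 82Q and 124, 133, 129, 143 and 139 CPM in 82Q_M120A, with a gap between WT and both mutant groups. Against WT the log2 fold change was -0.43 ± 0.034 in 82Q (adjusted p = 3.84e-08) and -0.36 ± 0.034 in 82Q_M120A (adjusted p = 2.21e-07). Dlgap1 had 381 ± 21.5, 363 ± 11.6 and 356 ± 14.1 CPM and was not called (adjusted p = 0.26 and 0.0688). Dlgap3, at 129 CPM in WT, and Dlgap2, at 1.23 CPM in WT, were not called either.

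Homer proteins tie group I metabotropic receptors to Shank and to the inositol trisphosphate receptor. Homer2 was the only scaffold gene called higher against WT in either group, with 19.2, 19.2, 19.3, 18.7 and 20.6 CPM in WT, 23.3, 22.3, 22.2, 22 and 21.9 CPM in 82Q and 24.5, 30.1, 28.5, 25 and 29 CPM in 82Q_M120A. The 3 groups did not overlap and stood in that order from low to high. The log2 fold change was 0.20 ± 0.053 in 82Q (adjusted p = 0.0109) and 0.50 ± 0.053 in 82Q_M120A (adjusted p = 8.29e-07). Homer1, whose short form is an activity-induced transcript that the count does not separate from the long ones, was not called against WT in either group. Grip2 was lower in both groups, from 15 ± 0.849 CPM in WT to 13.1 ± 0.984 in 82Q (adjusted p = 0.0169, and 0.0611 by library size only) and 12.2 ± 0.459 CPM in 82Q_M120A (adjusted p = 0.000315). Grip1, from 8.82 ± 0.918 to 7.4 ± 0.31 CPM, was lower in 82Q_M120A (adjusted p = 0.00528) and not called in 82Q (adjusted p = 0.0702).

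The falls in Grik1 and Shank2 were close in size to those of the Purkinje cell markers, whose median log2 fold change was -1.10 in 82Q and -0.99 in 82Q_M120A. The 8 markers ranged from -1.37 (Car8) to -0.24 (Gad1) in 82Q and from -1.45 (Itpr1) to -0.44 (Gad1) in 82Q_M120A. Their part in the receptor and scaffold results was not tested. Grin2c and Grm4 were not called in either comparison with WT, although without 82Q_M120A-1 Grin2c was higher in 82Q_M120A (log2 fold change 0.13, adjusted p = 0.0301), and of the 8 granule cell markers 1 was higher in 82Q, while 4 were higher and 1 lower in 82Q_M120A.

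The third comparison, 82Q_M120A against 82Q, sets the kinase allele on the shared Atxn1[82Q] genotype, with strain and age differing too. Of all 16808 tested genes 18.9% were called, 10.3% higher and 8.63% lower, and 12.1% did not overlap. Of the 38 genes 4 were higher (Homer2, Grik4, Grin2c and Shank3), 4 lower (Gria3, Grin3a, Shank1 and Homer1) and 30 not called, 4 did not overlap (Homer2, Grik4, Gria3 and Homer1), and the median log2 fold change was -0.01 against 0.00 over all tested genes. This share of called genes, 8 of 38, is near that of all genes. The genes that fell most in 82Q, Grik1 and Shank2, were not called, with log2 fold changes of 0.12 ± 0.066 and -0.03 ± 0.047 (adjusted p = 0.21 and 0.736).

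Homer2, with the values given above, was 1.23-fold higher in 82Q_M120A than in 82Q (0.30 ± 0.052, adjusted p = 0.00066), on the side away from WT. Grik4 was 1.14-fold higher (0.19 ± 0.046, adjusted p = 0.00751), on the side toward WT. These were the only calls of this comparison kept in all 20 alternative settings. The calls of Gria3 and Shank3 were lost only at the stricter threshold of 0.01. Gria3 was lower still in 82Q_M120A (-0.21 ± 0.053, adjusted p = 0.01, and 0.0165 with the Xist class as covariate). Homer1 stood at 44.5, 44.1, 52.8, 45.6 and 41.5 CPM in 82Q and at 40.1, 35.7, 38.4, 39.2 and 40.5 CPM in 82Q_M120A, against 42 ± 4.24 CPM in WT (SD, n = 5). The highest 82Q_M120A library lay just under the lowest 82Q library. Its log2 fold change was -0.24 ± 0.068 (adjusted p = 0.0214), and the call was lost without 82Q-3 or 82Q_M120A-2 (adjusted p of up to 0.0528).

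Grin2c had 463, 468, 465, 526 and 484 CPM in 82Q and 485, 536, 571, 582 and 552 CPM in 82Q_M120A, with WT at 511 ± 22.5 CPM. The groups overlapped through 82Q-4 and 82Q_M120A-1, and the log2 fold change was 0.18 ± 0.051 (adjusted p = 0.0189, and 0.0696 with log2 Ttr as covariate). Shank3 was higher by 0.16 ± 0.044 (adjusted p = 0.0166), which placed 82Q_M120A between 82Q and WT. Grin3a had 48.3, 39.3, 43.4, 41.3 and 42 CPM in 82Q and 37.1, 38.7, 36.8, 41.2 and 34.6 CPM in 82Q_M120A. Its groups overlapped, the log2 fold change was -0.19 ± 0.055 (adjusted p = 0.0263), and the call was lost without 82Q-1, 82Q_M120A-3 or 82Q_M120A-5 (adjusted p of up to 0.0729). Shank1, at -0.11 ± 0.036 (adjusted p = 0.0441), lost its call in 11 of 20 settings, with adjusted p of up to 0.101. Grm4 was not called (0.21 ± 0.082, adjusted p = 0.081). In it 82Q_M120A-1 stood at 526 CPM against 674 to 714 CPM in the other 4 libraries, and without 82Q_M120A-1 the log2 fold change was 0.28 with an adjusted p of 0.00721.

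**Figure D4:**
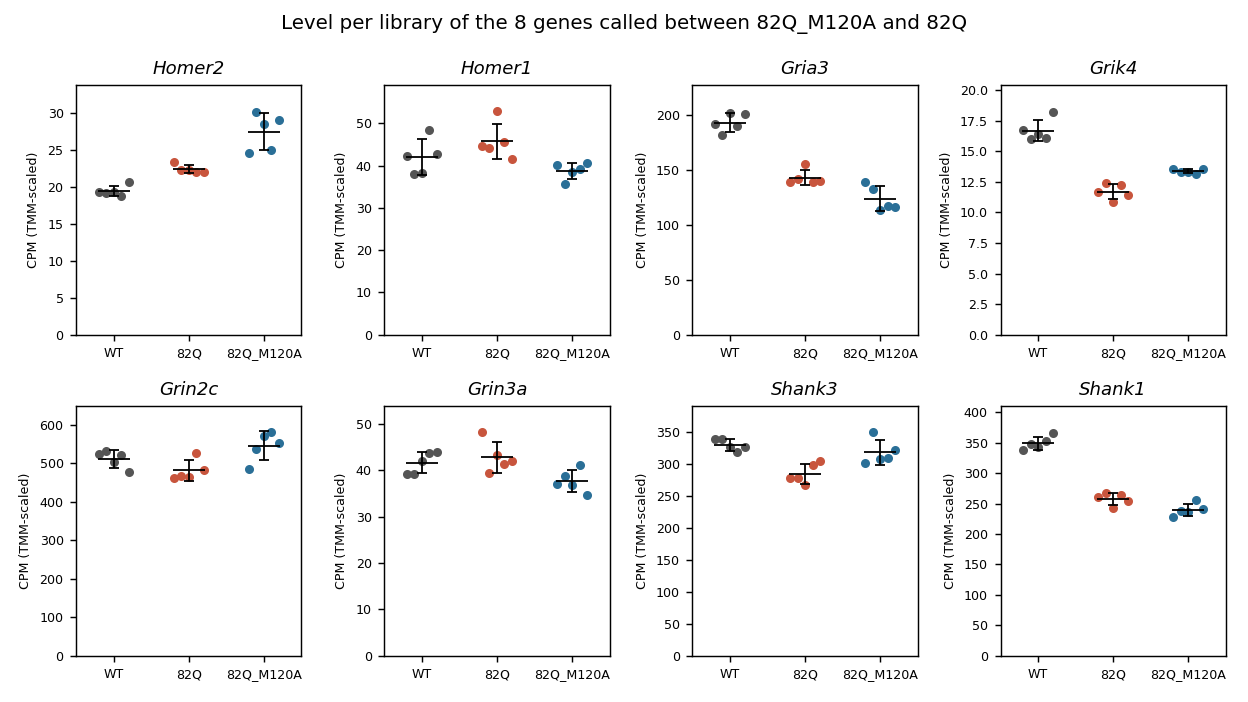
TMM-scaled CPM (vertical axis, from 0) of the 8 genes called between 82Q_M120A and 82Q, one point per library, 5 libraries per group, with the mean and SD as bars. Homer2 climbs from WT to 82Q to 82Q_M120A with no overlap, Grik4 in 82Q_M120A sits between the other groups, and the Grin2c, Grin3a, Shank3 and Shank1 points of 82Q and 82Q_M120A overlap.

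Around these genes 52 other genes of the same synapse were read from lists of AMPA receptor auxiliary subunits (14), kainate receptor auxiliary subunits (2), delta receptor partners and synapse organisers (10), a metabotropic receptor group with its partners (4 of 5 symbols in the table) and other postsynaptic density genes (22). In 82Q against WT 15 of the 52 were lower and 4 higher, in 82Q_M120A against WT 18 were lower and 11 higher, and in 82Q_M120A against 82Q 1 was lower and 10 higher. Over all tested genes 10.1% were lower and 8.63% higher in 82Q against WT. The shares were 17.8% and 18.6% in 82Q_M120A against WT, and 8.63% and 10.3% in 82Q_M120A against 82Q.

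Homer3, the Homer form of Purkinje cell spines, had 307, 288, 304, 296 and 338 CPM in WT, 117, 133, 116, 119 and 106 CPM in 82Q and 128, 136, 112, 123 and 137 CPM in 82Q_M120A. The highest mutant library lay far below the lowest WT library, and the log2 fold changes were -1.38 ± 0.063 and -1.27 ± 0.063 (adjusted p = 8.74e-11 and 1.56e-10). Shisa6, whose protein keeps AMPA receptors from desensitising, went from 269 ± 11.2 to 124 ± 7.84 and 126 ± 11 CPM (SD, n = 5, log2 fold change -1.11 ± 0.056 and -1.10 ± 0.056). Adgrb3, the receptor for C1ql1 at climbing fibre synapses, went from 141 ± 4.39 to 125 ± 6.04 and 120 ± 1.84 CPM. Among other postsynaptic density genes, Kalrn, a guanine nucleotide exchange factor of spines, fell by 1.59-fold and 1.58-fold, Baiap2 (IRSp53, an actin regulator bound by Shank) by 1.51-fold and 1.44-fold, and Nlgn2, the neuroligin of inhibitory synapses, by 1.33-fold and 1.38-fold. Camk2a, the gene of a kinase of synaptic plasticity, named here after its values were seen, went from 136 ± 11.3 to 55.9 ± 6.71 and 60.1 ± 5.97 CPM (-1.28 ± 0.085 and -1.18 ± 0.085). Adjusted p-values of Shisa6, Adgrb3, Kalrn, Baiap2 and Nlgn2 in 82Q were 1.34e-10, 0.000798, 1.86e-10, 8.73e-10 and 9.24e-09. The per-length share of Homer3 among the 3 Homer genes was 94.6% ± 0.398 in WT, 85.9% ± 1.15 in 82Q and 87.2% ± 0.937 in 82Q_M120A. That of Homer2 was 1.64% ± 0.051, 4.46% ± 0.322 and 5.14% ± 0.534. The Homer2 share also moves with the fall in Homer3. Homer2 itself was 1.15-fold higher than in WT in 82Q and 1.41-fold higher in 82Q_M120A.

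AMPA receptor auxiliary subunits, which traffic AMPA receptors and set their gating, had 5 lower and 2 higher of 14 in 82Q against WT, 4 lower and 5 higher in 82Q_M120A against WT, and 7 higher and 7 not called in 82Q_M120A against 82Q. Over all tested genes the lower and higher shares were 10.1% and 8.63%, then 17.8% and 18.6%, then 8.63% and 10.3%. The median log2 fold change of the 14 was -0.12, 0.03 and 0.19 in these comparisons, against 0.01, 0.01 and 0.00 over all tested genes. Cacng5, which encodes a TARP (a transmembrane AMPA receptor regulatory protein), had 39.4, 34.9, 39.6, 34.9 and 38 CPM in WT, 31.1, 32.8, 32.6, 31.6 and 31.9 CPM in 82Q and 67.3, 60, 54.8, 72 and 50.2 CPM in 82Q_M120A. All 82Q_M120A libraries lay above both other groups, with log2 fold changes of 0.70 ± 0.077 against WT and 0.93 ± 0.077 against 82Q (adjusted p = 2.29e-06 and 3.6e-07). Cacng4, another TARP gene, rose from 7.74 ± 0.411 CPM in WT to 9.93 ± 0.868 in 82Q and 15.9 ± 1.7 CPM in 82Q_M120A (SD, n = 5), with no overlap between any groups and adjusted p of 0.00238 in 82Q against WT and 4.5e-06 in 82Q_M120A against 82Q. Cacng4 and Cacng5 lie near each other, at chr11:107732357-107794557 and chr11:107874605-107915055 (mm10, minus strand). Whether their rises in the mixed-strain group are separate was not tested. Cnih2, a cornichon that slows AMPA receptor closing, fell from 39.9 ± 1.32 to 29.4 ± 1.7 CPM in 82Q and lay at 34.5 ± 1.74 CPM in 82Q_M120A, above 82Q (adjusted p = 0.00127) and below WT (adjusted p = 0.0011). Cacng7, also a TARP gene, was lower in both groups (-0.29 ± 0.032 and -0.24 ± 0.032) and not called between them. The other genes called higher in 82Q_M120A against 82Q were Shisa8, Shisa9, Gsg1l and Frrs1l, with log2 fold changes of 0.54, 0.20, 0.30 and 0.11, named as the rest of the 7. Of the 4 pore-forming AMPA genes, Gria3 was lower in that comparison and the other 3 were not called.

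**Figure D5:**
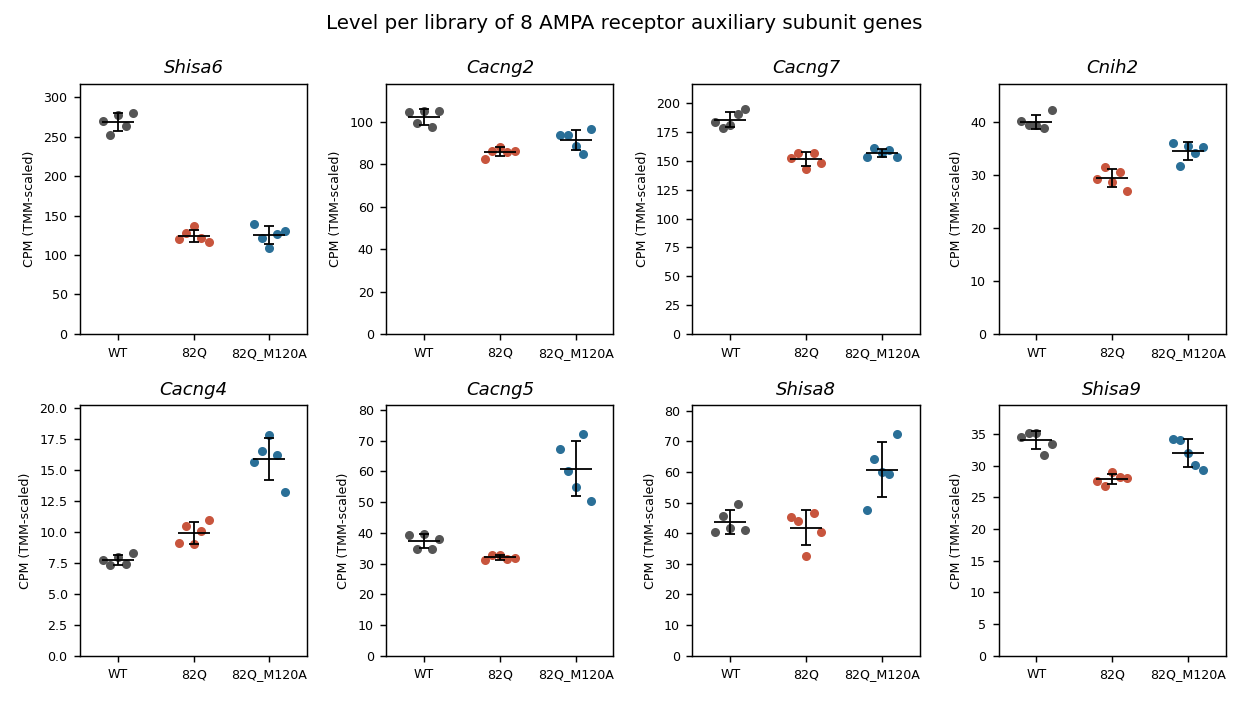
TMM-scaled CPM (vertical axis, from 0) of 8 AMPA receptor auxiliary subunit genes, one point per library, 5 libraries per group, with the mean and SD as bars; Cacng2, Shisa8 and Shisa9 were added to the plot after their values were seen. Shisa6 and Cacng7 are low in both mutant groups, while Cacng4 and Cacng5 are highest in 82Q_M120A (15.9 and 60.9 CPM on average).

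In the list of synapse organisers, the cerebellins that granule cells release onto delta receptors differed in 82Q_M120A. Cbln3 had 1524 ± 43.6, 1437 ± 85.8 and 1717 ± 77.8 CPM, higher in 82Q_M120A against 82Q (adjusted p = 0.000423), and Cbln1 had 908 ± 77.8, 926 ± 60.3 and 1040 ± 34.4 CPM (adjusted p = 0.0418). Grasp, an adaptor of group I metabotropic receptors also named tamalin, was the 1 gene of the 52 that was lower in 82Q_M120A than in 82Q, at 6.06 ± 0.32 against 4.73 ± 0.406 CPM (adjusted p = 0.00165). The kainate auxiliary subunit genes Neto1 and Neto2 were not called in any comparison, with WT levels of 2.11 ± 0.323 and 142 ± 6.42 CPM.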

How the data were processed

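Cerebellar RNA of 3 groups of 5 mouse libraries was sequenced from TruSeq libraries on an Illumina HiSeq, per the labels. The authors deposited 1 table of read counts per gene symbol, and the submitters' processing notes name HISAT2 2.0.1, featureCounts of Subread, CASAVA 1.8, DESeq2 1.14.1, R 3.3.3 and the build mm10. The sources used here do not give the annotation, the strand setting or how multiply mapped reads were counted. All columns were mapped to a group (0 were not). The columns carry no replicate number.

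From the counts, edgeR 4.0.16 in R 4.3.3 was fitted to the 15 libraries by group, with no covariate (TMM, filterByExpr, glmQLFit with robust estimation, glmQLFTest, two-sided), and p-values were adjusted by Benjamini-Hochberg over 16808 genes, with calls under 0.05. Genes in the filter held 99.99% of the counts. The common biological coefficient of variation was 0.105, and totals of 38.3 to 99.4 M counts leave counting error small against it except in the rarest genes. Standard errors were taken as the size of the log2 fold change over the root of its F statistic. Gene models are GENCODE genes on mm10, and per-length levels divide CPM by union exon length.

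Alternatives were other tools (DESeq2 1.42.0, limma-voom in limma 3.58.1), other scaling (RLE factors, or library size alone), other filters (none, or a mean CPM of 1 or more), fitting the compared groups alone, a threshold of 0.01, leaving out each library, and, chosen after seeing the data, Xist class or log2 Ttr as covariate. The members, the pathway and marker lists and the tests were chosen with earlier results of these data known. Every member could be named, full values went to each family's called members, smallest adjusted p first, or to its most abundant one, and of each pathway list up to 3 called genes per comparison were named. Some genes of the pathway lists are counted but not reported singly here.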

Additional observations from a re-analysis of the deposited data

Results flagged for a closer look

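In 114 sets of 5 libraries (38 genes in 3 groups) the highest or lowest library was compared with the others, and in 8 sets it stood apart by more than 0.71 of the group's range (Dixon's 95% limit for 5 values). Chance alone gives about 1 in 20. Gria3 in 82Q-3 was at 155 CPM, against 139 to 141.6 CPM in the other 82Q libraries, and still below every WT library. Homer2 in 82Q-1 was at 23.3 CPM, against 21.93 to 22.27 CPM, and below every 82Q_M120A library.

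WT-5, the shallowest library, was highest in Shank2, at 309.5 CPM against 275.6 to 281.5 CPM, and in Dlgap4, at 177.7 CPM against 168.9 to 171.1 CPM. Both genes were called lower in each mutant group also without WT-5.

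82Q_M120A-1 was apart in 3 genes. Grin1 was at 235.2 CPM, against 251 to 255.9 CPM in the other 82Q_M120A libraries, Grm4 at 526 CPM against 674.4 to 713.8 CPM, and Grid1 at 34.87 CPM against 26.17 to 28.15 CPM. Without 82Q_M120A-1, Grm4 was called higher and Grid1 lower in 82Q_M120A against 82Q, with adjusted p of 0.00721 and 0.00497 in edgeR's quasi-likelihood test. Grin2b in 82Q_M120A-2 was at 3.32 CPM, against 4.54 to 4.841 CPM.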

How the results depend on the processing

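No called fold change of the 38 genes changed direction in any alternative. Of the calls, 12 of 16 in 82Q against WT, 13 of 22 in 82Q_M120A against WT and 2 of 8 in 82Q_M120A against 82Q were kept in all 20 settings. These settings include the threshold of 0.01 on the main fit. Only there were the calls of Homer2 in 82Q against WT and of Gria3 and Shank3 in 82Q_M120A against 82Q lost. By library size only, 6 genes were higher in 82Q and 8 in 82Q_M120A against WT. At adjusted p under 0.01, 0 genes were higher in 82Q against WT (2 at 0.05), 3 were higher and 11 lower in 82Q_M120A against WT (5 and 17), and 2 were higher and 0 lower in 82Q_M120A against 82Q (4 and 4), with 7 of the 52 pathway genes called (11). With log2 Ttr as covariate 3 were higher in 82Q_M120A against WT. In that fit 6 calls against WT were lost, those of Gria1, Gria4, Grin2d and Grm8 (lower) and of Grm2 and Grm5 (higher), and 2 genes gained a call. Leaving out 1 library at a time gave 1 to 2 higher and 14 to 15 lower in 82Q against WT, 3 to 7 higher and 15 to 18 lower in 82Q_M120A against WT, and 4 to 6 higher and 2 to 4 lower in 82Q_M120A against 82Q, with 7 to 13 pathway genes. The lowest counts came without WT-1, WT-4 or 82Q-1 (1 higher in 82Q), without WT-1 (3 higher in 82Q_M120A against WT), without 82Q-1, 82Q_M120A-2, 82Q_M120A-3 or 82Q_M120A-5 (2 lower in 82Q_M120A against 82Q), and without 82Q-2 or 82Q-5 (7 pathway genes). The cause was not tested. No paired analysis was possible because the columns of the table carry no replicate number. Genes at a few CPM, such as Dlgap2, Grin3b and Grin2b, have the largest counting error. Kinase allele, strain and age cannot be told apart.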
